A study of Mus musculus with 38 samples.

Results

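The 35 genes described here bring glucose into the cell, break it down to pyruvate, turn pyruvate into lactate, and move pyruvate and lactate across membranes. The list was set by gene symbol with no threshold on any value, though with earlier results of these data known, and all 35 were found in a table that lists 11184 genes. All 35 also passed the minimum for testing, at least 1 RPKM in at least 4 of 32 RNA libraries, as did 9942 listed genes in all. RPKM is a read count divided by the length of the gene and the size of the library. The cells were primary macrophages grown from the bone marrow of C57BL/6 mice. In the 3 lactic acid groups (LA 8h, LA 16h, LA 24h), the cells received lipopolysaccharide (LPS, a bacterial cell wall component, 5 ng/ml) with interferon-gamma (IFNg, 12 ng/ml), a combination that drives macrophages to the inflammatory M1 state, and lactic acid 4 h later at a dose that the labels do not give. The groups called 4h, 8h, 16h and 24h received LPS and IFNg without lactic acid, and the 0h group was collected at time 0. The number in each name is the time in hours after LPS and IFNg, and each group held 4 libraries. ChIP-seq of lactylated (H3K18la) and acetylated (H3K18ac) lysine 18 of histone H3 was made once for each mark in M1 cells at 24 h and in unstimulated M0 cells.

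Glycolysis splits glucose into pyruvate and yields ATP without oxygen. Its early steps spend ATP and hold the main control points, glucose uptake, hexokinase and phosphofructokinase, and its late steps, the payoff phase, return ATP. Lactate dehydrogenase reduces pyruvate to lactate and renews the NAD+ that the payoff phase needs, and monocarboxylate transporters carry lactate out with a proton. Macrophages stimulated with LPS are known for a high rate of glycolysis and lactate release, and lactate is the source of the acyl group in histone lactylation.

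Summed over the listed genes, an RNA library had between 60.63 and 103.93 M reads. On the second principal component of all tested genes, LA 24h replicate 1 scored 28.6, outside the 22.6 to 25.2 of the remaining LA 24h libraries, and 24h replicate 4 scored 17.9, outside the 8.7 to 11.6 of the remaining 24h libraries. Results at 24 h are therefore also given without this pair of libraries. All 12 macrophage markers were listed, with a summed level of 11150 RPKM or more in every library. None of 12 erythroid and mast cell markers was listed, and those listed of 12 lymphocyte markers (2), 10 dendritic cell markers (4) and 12 stromal and endothelial markers (8) summed to at most 33.2, 5.85 and 6.76 RPKM. Of 14 neutrophil markers 8 were listed, without Ly6g, Mpo or Elane, and summed to 29.5 to 138 RPKM. The labels do not say whether replicates are separate mice or cultures, so every p-value measures only the spread between these libraries. In a mixture of cells, fewer expressing cells and less RNA per cell cannot be told apart.

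A core of the sites bound by the hypoxia-inducible factors is the 5 bases ACGTG, which also stands in the CACGTG box that MYC and related factors bind. In the 250 bases before the most upstream annotated start, read on both strands, ACGTG was found in 13 of 32 members with a RefSeq promoter (40.6%), against 1993 of 8950 listed genes (22.3%). A match is a description of these letters and not a bound site, and a CACGTG is counted once on each strand. The following promoters (RefSeq, build GRCm38.p6, each written 5′ to 3′ on the strand of its gene, ending at the base before the start) are those of 6 members picked because they hold the motif, at the entry of the pathway, in its payoff phase and at its lactate end, and of Slc2a6, which holds none and is among the members with the largest rise at 4 h. They are examples and not a sample, since 19 of the 32 members hold no match. Capitals mark ACGTG or its reverse complement CACGT. Ldha held 5 matches, from 2 CACGTG boxes and a single site, while Hk2, Pgk1 and Slc16a3 held 2 each and Slc2a1 and Pfkfb3 held 1 each.
Ldha (chr7:46845554-46845803, plus strand): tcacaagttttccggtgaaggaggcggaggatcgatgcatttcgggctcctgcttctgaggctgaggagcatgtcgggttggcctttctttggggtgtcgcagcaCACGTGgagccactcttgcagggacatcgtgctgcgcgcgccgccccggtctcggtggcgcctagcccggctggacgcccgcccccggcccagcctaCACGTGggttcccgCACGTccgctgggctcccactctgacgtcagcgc
Hk2 (chr6:82774455-82774704, minus strand): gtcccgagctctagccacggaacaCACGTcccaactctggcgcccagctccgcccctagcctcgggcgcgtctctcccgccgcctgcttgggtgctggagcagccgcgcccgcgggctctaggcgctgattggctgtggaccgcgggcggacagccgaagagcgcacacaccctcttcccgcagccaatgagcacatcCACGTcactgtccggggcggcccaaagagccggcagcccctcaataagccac
Pgk1 (chrX:106186850-106187099, plus strand): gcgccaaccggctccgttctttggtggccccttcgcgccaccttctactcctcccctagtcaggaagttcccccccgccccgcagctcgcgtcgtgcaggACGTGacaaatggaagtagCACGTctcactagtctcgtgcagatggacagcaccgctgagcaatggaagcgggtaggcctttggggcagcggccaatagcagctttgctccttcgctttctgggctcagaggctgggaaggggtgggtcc
Slc16a3 (chr11:120948817-120949066, plus strand): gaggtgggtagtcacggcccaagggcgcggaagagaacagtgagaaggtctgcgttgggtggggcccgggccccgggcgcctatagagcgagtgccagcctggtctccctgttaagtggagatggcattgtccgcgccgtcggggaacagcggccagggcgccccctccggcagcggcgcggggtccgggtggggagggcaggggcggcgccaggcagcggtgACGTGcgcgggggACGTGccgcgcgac
Slc2a1 (chr4:119108495-119108744, plus strand): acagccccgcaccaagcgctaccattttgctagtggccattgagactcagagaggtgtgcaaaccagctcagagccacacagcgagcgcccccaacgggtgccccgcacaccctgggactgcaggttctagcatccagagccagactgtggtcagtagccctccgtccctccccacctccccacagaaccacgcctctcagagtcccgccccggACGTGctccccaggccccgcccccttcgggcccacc
Pfkfb3 (chr2:11553930-11554179, minus strand): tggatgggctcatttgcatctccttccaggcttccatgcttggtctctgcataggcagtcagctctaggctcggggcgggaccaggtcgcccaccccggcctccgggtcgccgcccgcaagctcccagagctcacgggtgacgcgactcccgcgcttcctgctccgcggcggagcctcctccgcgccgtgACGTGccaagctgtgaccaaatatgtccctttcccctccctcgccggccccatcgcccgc
Slc2a6 (chr2:27027999-27028248, minus strand): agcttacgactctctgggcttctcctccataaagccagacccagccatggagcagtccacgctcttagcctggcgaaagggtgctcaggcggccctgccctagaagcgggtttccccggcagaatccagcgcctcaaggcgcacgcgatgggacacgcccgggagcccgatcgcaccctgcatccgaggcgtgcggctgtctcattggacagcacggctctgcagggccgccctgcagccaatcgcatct

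The RNA time course asks how the pathway changed as the cells went to the M1 state. Fold changes are log2 differences of log2(RPKM + 1), which understates the changes of genes with low levels, each followed by its standard error, and a gene is called higher or lower where limma's adjusted p over all tested genes is under 0.05. The 4 comparisons with 0 h share the 0h libraries. At 4 h against 0 h, 17 of 35 members were higher and 12 lower, while 42.5% of all tested genes were higher and 42.7% lower. At 8 h, 27 members were higher and 8 lower, beside 40.7% and 42.1% of all tested genes. At 16 h, 27 were higher and 4 lower, beside 39.9% and 36.9%, and at 24 h again 27 were higher and 4 lower, beside 39.9% and 37.3%. The median fold change of the members was 0.14 (0.04 without 0h replicate 4, and 0.04 with a trend on gene length removed within each library), 0.67, 0.53 and 0.57 at 4, 8, 16 and 24 h, and that of all tested genes was -0.002, -0.012, 0.017 and 0.016. The authors scaled each library to an effective size. When every library was rescaled by its summed listed reads instead, below called listed-read scaling, the all-gene median moved to -0.439, -0.406, -0.307 and -0.379 and that of the members to -0.378, 0.191, 0.19 and 0.092. The members then split into 9 higher and 22 lower at 4 h, 23 and 8 at 8 h, 21 and 9 at 16 h, and 17 and 10 at 24 h. Of all genes called, the share that was higher was 49.9%, 49.2%, 51.9% and 51.6% at the 4 times in the deposited scaling and 26.5%, 25.3%, 25.3% and 20.1% in the other. The fold changes below are those of the deposited scaling, in which the median gene stays near 0.

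Cell type markers moved along the same time course. The summed macrophage markers ran from 18310 to 20770 RPKM at 0 h, from 14170 to 15280 at 4 h, from 14540 to 16620 at 8 h, from 23280 to 33790 at 16 h and from 36820 to 49190 at 24 h. By this sum the 4h and 8h libraries lay below those of 0 h, and the 16h and 24h libraries above them. Single macrophage markers went both ways. Of 12, 4 were higher and 7 lower at 4 h, 5 and 6 at 8 h, 7 and 4 at 16 h, and 8 and 3 at 24 h. The listed neutrophil markers summed to 29.5 to 37.1 RPKM at 0 h, at least 78.6 at 4 h, 101 to 111 at 8 h, 70.0 to 85.4 at 16 h and 68.3 to 80.9 at 24 h, with every stimulated library above those of 0 h. Stromal and endothelial markers summed to 1.71 to 2.45 RPKM at 0 h and to between 4.0 and 5.99 at the later times. Dendritic cell markers summed to 1.94 to 2.31 RPKM at 0 h and 4.99 to 5.37 at 4 h. At 8, 16 and 24 h they lay between 2.93 and 4.11 RPKM. Lymphocyte markers went down, to at most 7.49 RPKM at 4 h, 17.3 at 8 h and 18.7 at 16 h. These lymphocyte sums all lay below those of the 0h libraries, while the 24h libraries overlapped those of 0 h. The part of these markers in the time course of the members was not tested.

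**Figure D1:**
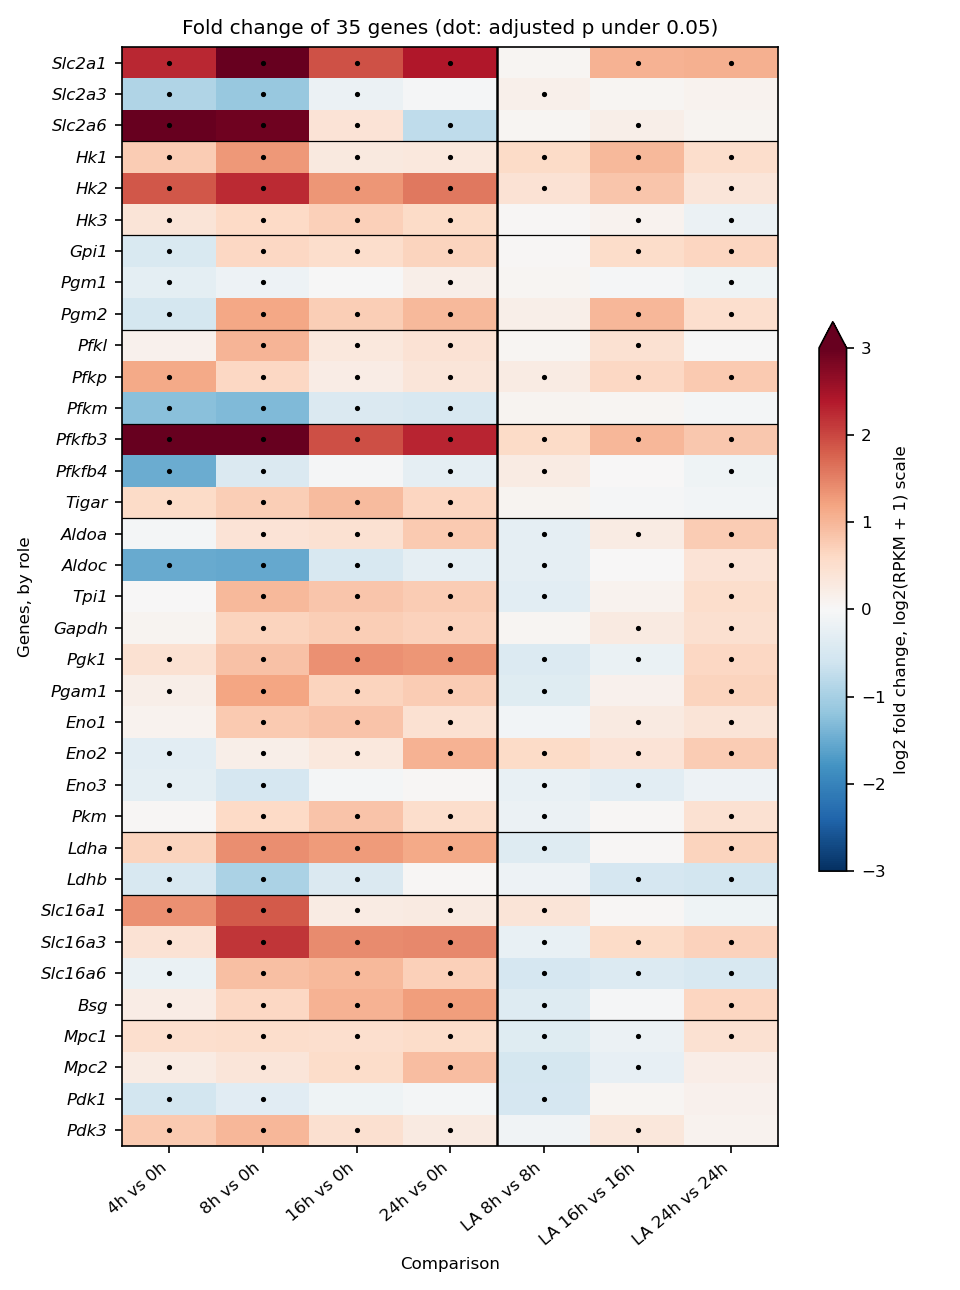
Log2 fold change (colour, capped at 3 on the red side) of the 35 members, ordered by role and divided by lines, in 4 times against 0 h (left of the heavy line) and lactic acid against none at 3 times (right). Black dots mark adjusted p under 0.05. Slc2a1, Slc2a6, Hk2, Pfkfb3 and Slc16a3 carry the darkest red on the left, and the enzymes from Aldoa to Pkm are mostly blue in LA 8h and red in LA 24h.

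All 3 glucose transporters were called at 4 h, 2 higher and 1 lower. Most members were also called at that time, 17 of 35 higher and 12 lower, beside 42.5% and 42.7% of all tested genes. Slc2a1, the main glucose transporter of activated macrophages (GLUT1), had 19.4, 18.7, 18.8 and 14.0 RPKM at 0 h, 93.3, 75.9, 94.2 and 88.0 at 4 h, 251, 257, 248 and 240 at 8 h, 71.6, 69.2, 64.6 and 71.2 at 16 h, and 89.8, 89.1, 98.5 and 114 at 24 h. Every stimulated library lay above every 0h library, and the 8h libraries stood above all others of this arm. The fold change over 0 h was 3.75 ± 0.09 at 8 h and 2.40 ± 0.09 at 24 h, and 24 h lay below 8 h by a fold change of -1.34 ± 0.09. Slc2a6, a lysosomal hexose transporter (GLUT6), reached 263, 254, 254 and 260 RPKM at 4 h, against 28.0, 27.4, 26.2 and 29.7 at 0 h, a fold change of 3.17 ± 0.07. It then dropped to 14.7, 17.3, 17.8 and 14.4 RPKM at 24 h, below every 0h library (-0.76 ± 0.07). Slc2a3 (GLUT3), a high-affinity transporter, was low throughout, with 0.469, 0.308, 0.389 and 0.337 RPKM at 8 h, against 1.90, 2.16, 2.12 and 1.96 at 0 h. It fell by 1.14 ± 0.05 on the log2 scale at 8 h, and at 24 h it was at -0.04 ± 0.05 (adjusted p = 0.55), with libraries that overlapped those of 0 h, but it was called lower under listed-read scaling (-0.37). Of the summed RPKM of these 3 transporters, Slc2a1 made up 37.1 ± 4.4% at 0 h and 25.3 ± 1.7% at 4 h, when Slc2a6 held 74.5 ± 1.7%, and 84.3 ± 2.3% at 24 h (SD, n = 4).

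Hexokinases, which trap glucose in the cell as glucose 6-phosphate, were higher at each time in all 3 isoforms, though listed-read scaling turned Hk3 at 4 h (-0.13) and Hk1 at 16 h (-0.08) and 24 h (-0.13). Hk2, the inducible isoform bound to mitochondria, had 19.4, 21.1, 16.4 and 16.9 RPKM at 8 h, against 3.04, 3.08, 3.41 and 2.94 at 0 h, a fold change of 2.24 ± 0.08. It stood at 11.8, 10.6, 12.2 and 10.8 RPKM at 24 h (1.58 ± 0.08), still above every 0h library. Hk1, the broadly expressed isoform, had 40.6, 42.6, 40.3 and 38.0 RPKM at 8 h, against 16.0, 15.6, 16.0 and 15.1 at 0 h (1.31 ± 0.06). At 24 h its fold change was 0.33 ± 0.06. Hk3, the isoform typical of myeloid cells, was the most abundant hexokinase per length in every group. It had 136, 135, 144 and 147 RPKM at 24 h, against 94.1, 96.2, 92.0 and 94.1 at 0 h, a fold change of 0.57 ± 0.04, which was 0.09 and no longer passed under that scaling. Its share of summed hexokinase RPKM was 83.4 ± 0.61% at 0 h, 70.9 ± 1.1% at 8 h and 81.7 ± 1.3% at 24 h.

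The next step takes glucose 6-phosphate to fructose 6-phosphate or, through phosphoglucomutase, toward glycogen. All 3 genes of this group were lower at 4 h and all 3 were higher at 24 h. Gpi1, the isomerase, was at -0.46 ± 0.07 at 4 h and 0.67 ± 0.07 at 24 h. The table's Pgm2 carries the gene identifier that RefSeq names Pgm1, the major phosphoglucomutase, and its fold changes were -0.52 ± 0.09 and 0.97 ± 0.09. The table's Pgm1 carries the identifier that RefSeq names Pgm2. It had 13.7, 14.5, 15.1 and 14.4 RPKM at 24 h, against 12.9, 12.3, 12.3 and 12.7 at 0 h, a fold change of 0.18 ± 0.05 that turned to -0.27 with listed-read scaling.

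Phosphofructokinase commits sugar to glycolysis, and its activator fructose 2,6-bisphosphate is set by the Pfkfb enzymes. Pfkfb3, which makes that activator, showed the largest early change of the members. It had 2.70, 2.87, 3.24 and 2.64 RPKM at 0 h, 71.3, 68.1, 80.1 and 75.3 at 4 h, 47.8, 47.4, 45.4 and 43.6 at 8 h, 15.1, 12.0, 12.5 and 15.7 at 16 h, and 18.4, 16.6, 20.4 and 16.4 at 24 h. The 4h libraries were the highest, no stimulated library overlapped those of 0 h, and the fold change was 4.27 ± 0.08 at 4 h and 2.29 ± 0.08 at 24 h. Pfkfb4, a related isoform, went the other way, with 3.05, 2.54, 3.06 and 3.15 RPKM at 4 h, against 9.83, 10.3, 10.3 and 9.88 at 0 h (-1.49 ± 0.06). It was at -0.27 ± 0.06 at 24 h. Tigar, whose product breaks down fructose 2,6-bisphosphate, was higher at each time, by 0.57 to 0.96.

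The 3 phosphofructokinase subunits split. Pfkp, the platelet-type subunit, had 28.8, 29.6, 28.5 and 29.7 RPKM at 4 h, against 12.9, 13.3, 12.0 and 12.4 at 0 h (1.14 ± 0.05), and fell back to 16.5, 17.4, 17.5 and 14.9 at 24 h (0.36 ± 0.05, or -0.09 under listed-read scaling). Pfkl, the liver-type subunit, did not pass at 4 h (0.14 ± 0.09, adjusted p = 0.16, and -0.38 under listed-read scaling) and was at 1.02 ± 0.09 at 8 h. Pfkm, the muscle-type subunit, had 3.26, 3.20, 2.91 and 3.22 RPKM at 8 h, against 9.23, 9.09, 9.14 and 10.1 at 0 h (-1.32 ± 0.05), and regained 5.83, 6.48, 6.66 and 6.67 RPKM at 24 h (-0.49 ± 0.05). Pfkm thus held 18.9 ± 2.3% of the subunits' summed RPKM at 0 h, 3.92 ± 0.19% at 8 h and 10.6 ± 0.39% at 24 h.

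**Figure D2:**
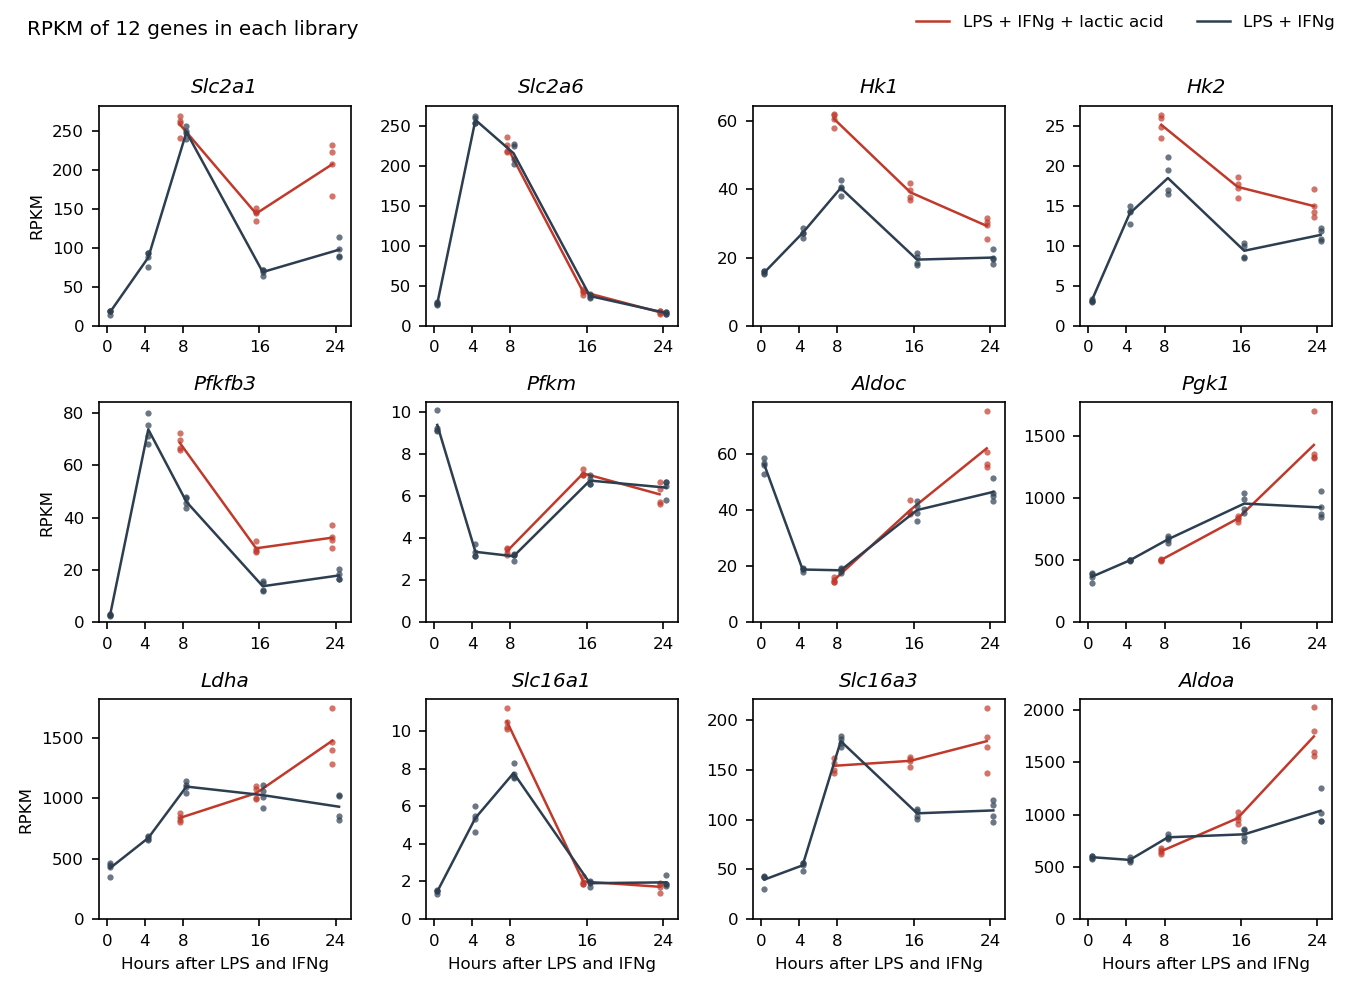
RPKM of 12 members (y axes from 0) in each library against hours after LPS and IFNg, with lactic acid (red, drawn slightly left) and without (dark), where points are libraries and lines join the group means. Slc2a1, Hk1, Hk2 and Slc16a1 without lactic acid are highest at 8 h, Slc2a6 and Pfkfb3 at 4 h, and Pfkm and Aldoc dip at 4 and 8 h. The red Pgk1, Ldha and Aldoa points lie below the dark ones at 8 h and above them at 24 h.

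Few of the enzymes from aldolase to pyruvate kinase had risen by 4 h. Of these 10 genes, 2 were higher (Pgk1 and Pgam1, at -0.08 and -0.34 under listed-read scaling) and 3 lower at 4 h, 8 higher and 2 lower at 8 h, and 8 higher and 1 lower at 24 h, with medians of 0.03, 0.63 and 0.72, and of the 8 at 8 h Aldoa turned to -0.08 under that scaling. Pgk1, phosphoglycerate kinase, which makes the first ATP of the payoff phase, had 869, 924, 849 and 1053 RPKM at 24 h, against 394, 388, 367 and 316 at 0 h. Its 24h libraries lay above every 0h library, with a fold change of 1.33 ± 0.08, and its highest mean came at 16 h. Aldoa, the main aldolase, did not pass at 4 h (-0.07 ± 0.08, adjusted p = 0.43), though listed-read scaling called it lower there (-0.60), and had 1013, 938, 943 and 1253 RPKM at 24 h, against 608, 603, 589 and 571 at 0 h (0.80 ± 0.08). Pkm, pyruvate kinase, the most abundant member in every group, had 1482, 1594, 1530 and 1693 RPKM at 24 h, against 1185, 1145, 1048 and 1028 at 0 h (0.52 ± 0.07). With listed-read scaling Pkm was at 0.03 and no longer passed. Tpi1, Gapdh, Pgam1 and Eno1 were higher at 24 h by 0.46 to 0.77, and Eno1 alone of these turned under that scaling, to -0.02. Several of these genes, Gapdh among them, have near-identical processed pseudogenes, and how the authors treated reads that match more than 1 place is not given in the sources used here, so their levels are uncertain.

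Among the minor isoforms of these steps, from aldolase to pyruvate kinase, Aldoc and Eno3 were lower at 8 h and Eno2 was higher. Aldoc, the brain-type aldolase, had 18.3, 19.1, 17.8 and 19.3 RPKM at 8 h, against 56.3, 56.8, 53.0 and 58.6 at 0 h (-1.54 ± 0.07), and 43.4, 51.6, 46.2 and 45.3 at 24 h (-0.27 ± 0.07). Eno3, the muscle-type enolase, had 1.25, 0.856, 0.998 and 1.30 RPKM at 8 h, against 2.04, 2.1, 1.91 and 1.81 at 0 h (-0.50 ± 0.07). At 24 h it did not pass (0.03 ± 0.07, adjusted p = 0.72), and it was at -0.30 with listed-read scaling and -0.23 with the length trend removed. Eno2, the neuron-type enolase, was at 0.19 ± 0.08 at 8 h, or 0.01 under listed-read scaling, and had 2.27, 1.60, 1.89 and 2.64 RPKM at 24 h, against 0.423, 0.522, 0.450 and 0.594 at 0 h (1.04 ± 0.08), while Eno1 kept at least 98.3% of the enolase RPKM in the mean of each group.

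Lactate dehydrogenase was almost all Ldha, the subunit that favours lactate formation. Ldha had 463, 449, 430 and 347 RPKM at 0 h, 666, 654, 689 and 677 at 4 h, 1040, 1096, 1110 and 1141 at 8 h, 1009, 1112, 1061 and 922 at 16 h, and 821, 1015, 855 and 1029 at 24 h. All stimulated libraries lay above those of 0 h, with a fold change of 1.38 ± 0.09 at 8 h and 1.14 ± 0.09 at 24 h. Ldhb, the subunit that favours pyruvate formation, had 2.46, 1.58, 1.94 and 1.78 RPKM at 8 h, against 4.95, 3.83, 4.80 and 4.91 at 0 h (-0.94 ± 0.11). At 24 h Ldhb had returned to 4.64, 5.23, 3.94 and 5.25 RPKM (0.04 ± 0.11, adjusted p = 0.78, with -0.37 under listed-read scaling and -0.27 with the length trend removed). Ldha made up 99.5 ± 0.042% of the subunits' summed RPKM at 24 h and 98.9 ± 0.23% at 0 h.

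The main lactate exporter changed most between 4 and 8 h. Slc16a3, the lactate exporter of glycolytic cells (MCT4), had 56.5, 48.3, 56.7 and 54.5 RPKM at 4 h and 177, 181, 173 and 184 at 8 h, against 42.5, 43.5, 42.2 and 30.7 at 0 h. Its fold change was 0.44 ± 0.09 at 4 h, or -0.08 under listed-read scaling, and 2.15 ± 0.09 at 8 h, and 8 h lay above 4 h by 1.71 ± 0.09. In the comparison of 8 h with 4 h, 24 members were higher and 6 lower, beside 34.8% and 36.9% of all tested genes. Slc16a3 kept 97.7, 120, 115 and 104 RPKM at 24 h (1.45 ± 0.09). Slc16a1, the broadly expressed lactate and pyruvate transporter (MCT1), had 7.48, 8.31, 7.69 and 7.57 RPKM at 8 h, against 1.57, 1.49, 1.47 and 1.33 at 0 h (1.83 ± 0.07), and was back at 1.84, 1.89, 1.75 and 2.33 by 24 h (0.26 ± 0.07, or -0.05 under that scaling). Slc16a6, a monocarboxylate transporter whose zebrafish counterpart exports ketone bodies, had 7.45, 6.89, 6.38 and 6.37 RPKM at 8 h, against 3.31, 3.08, 3.15 and 3.05 at 0 h (0.91 ± 0.08). Bsg, the chaperone (CD147) that brings MCT1 and MCT4 to the cell surface, was at 0.63 ± 0.08 at 8 h and 1.25 ± 0.08 at 24 h.

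At the mitochondrial gate for pyruvate, both carrier subunits were higher at each time, though listed-read scaling put Mpc2 at -0.18 at 4 h and -0.01 at 8 h, and Mpc1 at 0.02 at 4 h, 0.08 at 8 h and 0.09 at 24 h, where Mpc1 no longer passed. Mpc2 had 6.83, 6.49, 5.35 and 8.93 RPKM at 24 h, against 3.08, 3.26, 2.64 and 3.36 at 0 h (0.94 ± 0.10), and Mpc1 was at 0.54 ± 0.07 in the deposited scaling. Pdk1, a kinase that switches pyruvate dehydrogenase off, had 11.7, 13.5, 11.8 and 13.1 RPKM at 8 h, against 16.7, 17.0, 18.3 and 12.8 at 0 h, with an overlap between the groups (-0.34 ± 0.10). At 24 h it did not pass (-0.05 ± 0.10, adjusted p = 0.66), though listed-read scaling called it lower (-0.50). Pdk3, a kinase of the same family, was at 1.00 ± 0.05 at 8 h and 0.28 ± 0.05 at 24 h, which turned to -0.13 under listed-read scaling.

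Without lactic acid, 5 members had their highest mean at 0 h (Slc2a3, Pfkm, Pfkfb4, Aldoc and Pdk1), 3 at 4 h (Slc2a6, Pfkp and Pfkfb3), 11 at 8 h, 7 at 16 h and 9 at 24 h. The 11 of 8 h included Slc2a1, Hk1, Hk2, Ldha, Slc16a1 and Slc16a3, and the 9 of 24 h included Aldoa, Bsg, Mpc1 and Mpc2. These times rest on group means in the deposited scaling and were not tested. Slc2a3 and Pdk1, placed at 0 h, and Eno3 and Ldhb, placed at 24 h, did not pass between 24 h and 0 h. Under listed-read scaling Eno3, Ldhb and Pgm1 as the table names it, all placed at 24 h, were lower there than at 0 h. Between 24 h and 8 h, 13 members were higher at 24 h and 15 lower, beside 38.9% and 37.6% of all tested genes. The lower ones were led by Slc2a6 (-3.67 ± 0.07), Slc16a1 (-1.57 ± 0.07), Slc2a1 (-1.34 ± 0.09), Pfkfb3 (-1.32 ± 0.08) and Hk1 (-0.98 ± 0.06). The higher ones were led by Aldoc (1.28 ± 0.07), Slc2a3 (1.11 ± 0.05), Ldhb (0.97 ± 0.11), Eno2 (0.85 ± 0.08) and Pfkm (0.84 ± 0.05).

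**Figure D3:**
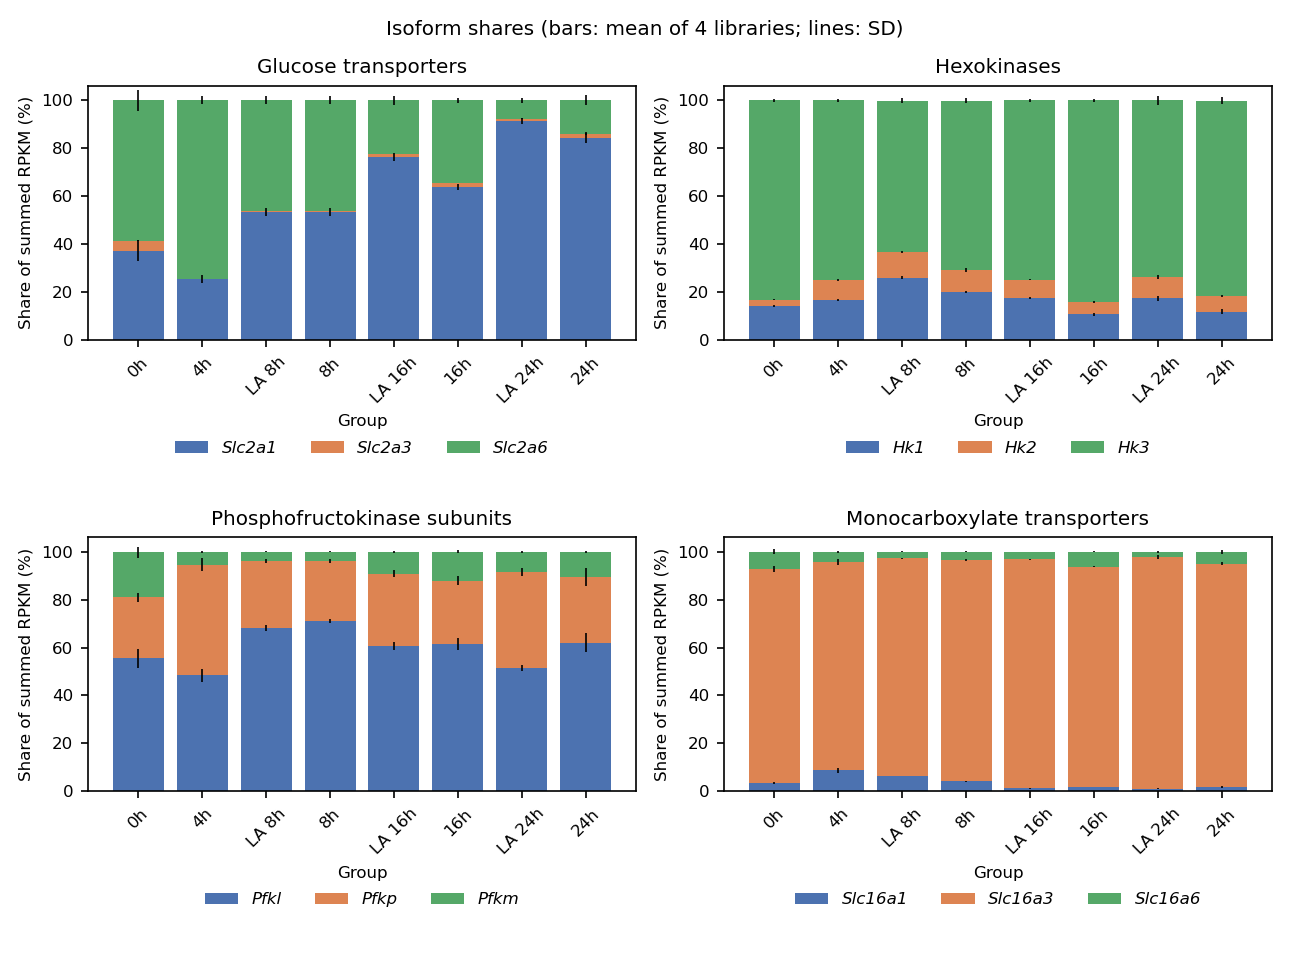
Share of summed RPKM (%, bars stacked to 100) of each isoform in 4 families, by group, as the mean of 4 libraries with its SD. Slc2a1 reaches 91.4% in LA 24h and 84.3% at 24 h, Hk3 is lowest in LA 8h at 63.3%, Pfkm shrinks to 3.92% at 8 h, and Slc16a3 holds 87.1% or more in every group.

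Lactic acid, the end product of the pathway, was added to ask how it changes gene expression during polarization, and each lactic acid group was compared with the group of the same time without it. At 8 h, that is 4 h after the addition, 8 of 35 members were higher and 14 lower with lactic acid, beside 32.1% and 36% of all tested genes, with a median of 0.03. Most of the higher members belonged to the steps before the aldolase, and most of the lower ones to the steps after it. Hk1, Hk2, Pfkp, Pfkfb3, Pfkfb4, Eno2, Slc2a3 and Slc16a1 were higher. Of the 10 genes from aldolase to pyruvate kinase 7 were lower, as were Ldha, Slc16a3, Slc16a6, Bsg, both pyruvate carrier subunits and Pdk1. With listed-read scaling, 12 members were higher and 12 lower, and their median was 0.12. With the length trend removed, Slc2a3 turned from 0.14 ± 0.05 to -0.04 and the payoff gene Eno3 from -0.22 ± 0.07 to 0.03, and neither then passed.

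Hk1 had 60.5, 58.0, 61.8 and 62.1 RPKM in LA 8h, against 40.6, 42.6, 40.3 and 38.0 at 8 h (0.57 ± 0.06). Hk2 had 24.8, 23.4, 26.3 and 25.9 RPKM in LA 8h, against 19.4, 21.1, 16.4 and 16.9 at 8 h (0.43 ± 0.08). Pfkfb3 had 72.3, 65.7, 66.7 and 69.6 RPKM in LA 8h, against 47.8, 47.4, 45.4 and 43.6 at 8 h (0.56 ± 0.08). In none of these 3 genes of the early steps did the groups overlap. Slc16a1 had 10.5, 10.1, 11.2 and 10.2 RPKM in LA 8h, against 7.48, 8.31, 7.69 and 7.57 at 8 h (0.39 ± 0.07). Eno2 had 1.87, 1.25, 1.68 and 1.38 RPKM in LA 8h, against 0.729, 0.595, 0.752 and 0.732 at 8 h (0.57 ± 0.08). Both were higher in every lactic acid library. Slc2a1 did not pass at 8 h (0.06 ± 0.09, adjusted p = 0.58), with 261, 242, 270 and 263 RPKM in LA 8h and 251, 257, 248 and 240 at 8 h.

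Pgk1 had 496, 504, 510 and 501 RPKM in LA 8h, against 638, 675, 659 and 698 at 8 h (-0.41 ± 0.08). Ldha had 845, 819, 877 and 807 RPKM in LA 8h, against 1040, 1096, 1110 and 1141 at 8 h (-0.39 ± 0.09). Neither gene overlapped between the groups. Mpc2 had 2.62, 2.85, 2.57 and 2.67 RPKM in LA 8h, against 4.38, 3.73, 4.43 and 4.62 at 8 h (-0.52 ± 0.10). Pdk1 had 8.12, 8.44, 9.11 and 8.32 RPKM in LA 8h, against 11.7, 13.5, 11.8 and 13.1 at 8 h (-0.51 ± 0.10). Slc16a6 had 4.32, 4.49, 4.47 and 4.78 RPKM in LA 8h, against 7.45, 6.89, 6.38 and 6.37 at 8 h (-0.49 ± 0.08). All 3 were lower in every lactic acid library. Aldoa, Tpi1, Pgam1 and Bsg lay between -0.27 and -0.38, and Gapdh (0.05 ± 0.07, adjusted p = 0.54) and Eno1 (-0.09 ± 0.07, adjusted p = 0.29) did not pass.

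Some of the smaller changes at 8 h depended on the processing. Pkm had 1470, 1468, 1516 and 1472 RPKM in LA 8h, against 1663, 1675, 1633 and 1688 at 8 h (-0.17 ± 0.07), and no longer passed with listed-read scaling (-0.08), with the length trend removed (-0.05), or without 8h replicate 4 (-0.16) or LA 8h replicate 2 (-0.16). Slc16a3 had 157, 147, 162 and 150 RPKM in LA 8h, against 177, 181, 173 and 184 at 8 h (-0.21 ± 0.09), and its call was lost in 6 of 8 fits that left out a single library (-0.22 to -0.19) and with listed-read scaling (-0.13). Pfkp was at 0.25 ± 0.05 and at 0.01 with the length trend removed, and Pgam1 was at -0.13 and no longer passed with it. The summed macrophage markers ran from 11150 to 11780 RPKM in LA 8h and from 14540 to 16620 RPKM at 8 h. Of these 12 markers, 4 were higher and 6 lower with lactic acid at 8 h. The summed neutrophil markers ran from 78.7 to 95.2 RPKM in LA 8h and from 101 to 111 RPKM at 8 h. Stromal and endothelial markers summed to 4.97 to 6.13 RPKM in LA 8h and to 4.0 to 4.53 RPKM at 8 h. The part of these marker differences in the result was not tested.

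At 16 h, 16 members were higher with lactic acid and 6 lower, beside 30.2% and 31% of all tested genes. The early steps now led with Slc2a1 (1.05 ± 0.09), Pfkfb3 (0.99 ± 0.08), Pgm2 as the table names it (0.99 ± 0.09), Hk1 (0.98 ± 0.06) and Hk2 (0.82 ± 0.08). Slc2a1 had 151, 135, 146 and 145 RPKM in LA 16h, against 71.6, 69.2, 64.6 and 71.2 at 16 h, with no overlap. Ldha (0.03 ± 0.09, adjusted p = 0.83) and Pkm (0.04 ± 0.07, adjusted p = 0.60) did not pass. Ldhb had 1.47, 2.15, 1.83 and 2.38 RPKM in LA 16h, against 3.53, 3.33, 3.44 and 2.47 at 16 h (-0.51 ± 0.11). The 6 lower members became 3 when 16h replicate 2, 16h replicate 3 or LA 16h replicate 1 was left out, because Pgk1 (-0.19 ± 0.08), Mpc1 (-0.18 ± 0.07) and Mpc2 (-0.24 ± 0.10) then missed the threshold, while Ldhb, Slc16a6 and Eno3 stayed called. The summed macrophage markers ran from 17590 to 21840 RPKM in LA 16h and from 23280 to 33790 RPKM at 16 h. Of these 12 markers, 2 were higher and 4 lower with lactic acid at 16 h. The summed neutrophil markers ran from 55.6 to 68.2 RPKM in LA 16h and from 70.0 to 85.4 RPKM at 16 h. Neither sum overlapped between the groups, and the part of these markers in the differences was not tested.

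At 24 h, 20 members were higher with lactic acid and 5 lower, beside 25.5% and 21.7% of all tested genes, with a median of 0.40, while the median of all tested genes was 0.010. Now 9 of the 10 genes from aldolase to pyruvate kinase were higher, as were Ldha, Slc16a3, Bsg and Mpc1. The same held for Slc2a1, Hk1, Hk2, Gpi1, Pgm2 as the table names it, Pfkp and Pfkfb3. Listed-read scaling moved the members' median to 0.19 and the all-gene median to -0.148, and 18.1% of the calls over all genes were then higher, in place of 54%. With that scaling, 19 members were higher and 10 lower. With the scaling as deposited and without 24h replicate 4 and LA 24h replicate 1, 22 were higher and 5 lower with lactic acid, and the counts at 24 h against 0 h stayed at 27 and 4.

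Slc2a1 had 233, 167, 208 and 223 RPKM in LA 24h, against 89.8, 89.1, 98.5 and 114 at 24 h (1.07 ± 0.09). Pfkfb3 had 28.3, 31.6, 32.5 and 37.1 RPKM in LA 24h, against 18.4, 16.6, 20.4 and 16.4 at 24 h (0.82 ± 0.08). Pfkp had 32.2, 26.2, 27.9 and 30.9 RPKM in LA 24h, against 16.5, 17.4, 17.5 and 14.9 at 24 h (0.78 ± 0.05). The groups did not overlap in these 3 genes. Hk2 had 14.9, 13.6, 14.2 and 17.1 RPKM in LA 24h, against 11.8, 10.6, 12.2 and 10.8 at 24 h (0.37 ± 0.08), and no longer passed with listed-read scaling (0.17). Hk1 had 29.5, 25.5, 30.5 and 31.6 RPKM in LA 24h, against 19.6, 20, 22.4 and 18 at 24 h (0.53 ± 0.06). Both hexokinase genes stood higher in every lactic acid library.

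Aldoa had 2032, 1598, 1802 and 1562 RPKM in LA 24h, against 1013, 938, 943 and 1253 at 24 h (0.76 ± 0.08). Pgk1 had 1698, 1327, 1321 and 1356 RPKM in LA 24h, against 869, 924, 849 and 1053 at 24 h (0.62 ± 0.08). Pkm had 2499, 1929, 2130 and 2093 RPKM in LA 24h, against 1482, 1594, 1530 and 1693 at 24 h (0.45 ± 0.07). LA 24h replicate 1 was the highest library for each of these 3 genes and 24h replicate 4 the highest of its group, and the groups did not overlap. Eno2 had 3.93, 4.81, 4.51 and 3.79 RPKM in LA 24h, against 2.27, 1.60, 1.89 and 2.64 at 24 h (0.77 ± 0.08). Aldoc had 75.5, 55.5, 60.9 and 56.7 RPKM in LA 24h, against 43.4, 51.6, 46.2 and 45.3 at 24 h (0.40 ± 0.07). Here too every lactic acid library was above every other one.

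At the lactate end, Ldha had 1751, 1285, 1402 and 1469 RPKM in LA 24h, against 821, 1015, 855 and 1029 at 24 h (0.66 ± 0.09). Slc16a3 had 212, 147, 183 and 173 RPKM in LA 24h, against 97.7, 120, 115 and 104 at 24 h (0.69 ± 0.09). Neither overlapped between the groups. Ldhb went the other way, with 4.03, 2.79, 2.70 and 2.33 RPKM in LA 24h, against 4.64, 5.23, 3.94 and 5.25 at 24 h (-0.55 ± 0.11), and 1 library overlapped. Slc16a6 had 3.31, 4.20, 3.83 and 4.17 RPKM in LA 24h, against 5.84, 6.73, 6.80 and 4.15 at 24 h (-0.48 ± 0.08). Its groups overlapped through 24h replicate 4. Slc16a1, which had been higher at 8 h, was at -0.12 ± 0.07 at 24 h (adjusted p = 0.14, or -0.24 and called lower under listed-read scaling), with 1.36, 1.88, 1.72 and 1.91 RPKM in LA 24h and 1.84, 1.89, 1.75 and 2.33 at 24 h. Bsg was higher by 0.63 ± 0.08 and Mpc1 by 0.46 ± 0.07, and Pdk1 (0.13 ± 0.10, adjusted p = 0.29) did not pass. Mpc2 did not pass either (0.19 ± 0.10, adjusted p = 0.12), but passed without 24h replicate 4 (0.31) or without LA 24h replicate 2 (0.25).

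The remaining calls among the lower members were small. Hk3 had 127, 118, 134 and 121 RPKM in LA 24h, against 136, 135, 144 and 147 at 24 h (-0.17 ± 0.04), Pgm1 as the table names it was at -0.13 ± 0.05, and Pfkfb4 had 7.79, 6.96, 7.80 and 6.93 RPKM in LA 24h, against 7.84, 8.79, 9.09 and 7.15 at 24 h (-0.14 ± 0.06). All 3 were lost when only the groups compared were fitted, which left 2 lower members, Ldhb and Slc16a6. Leaving out 24h replicate 3 or LA 24h replicate 2 left 3 lower members, because Pgm1 and Pfkfb4 then missed the threshold. Among stromal and endothelial markers the sum ran from 6.08 to 6.62 RPKM in LA 24h and from 4.29 to 5.18 RPKM at 24 h, and among neutrophil markers from 86.4 to 138 RPKM in LA 24h and from 68.3 to 80.9 RPKM at 24 h. Dendritic cell markers summed to 4.14 to 5.85 RPKM in LA 24h and to 2.93 to 4.11 RPKM at 24 h. The summed macrophage markers overlapped, with 38410 to 54720 RPKM in LA 24h and 36820 to 49190 RPKM at 24 h. Of these 12 markers, 4 were higher and 4 lower with lactic acid at 24 h. Lymphocyte markers overlapped too, with 20.4 to 33.2 RPKM in LA 24h and 19.1 to 26.0 RPKM at 24 h. The part of these markers in the result was not tested.

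**Figure D4:**
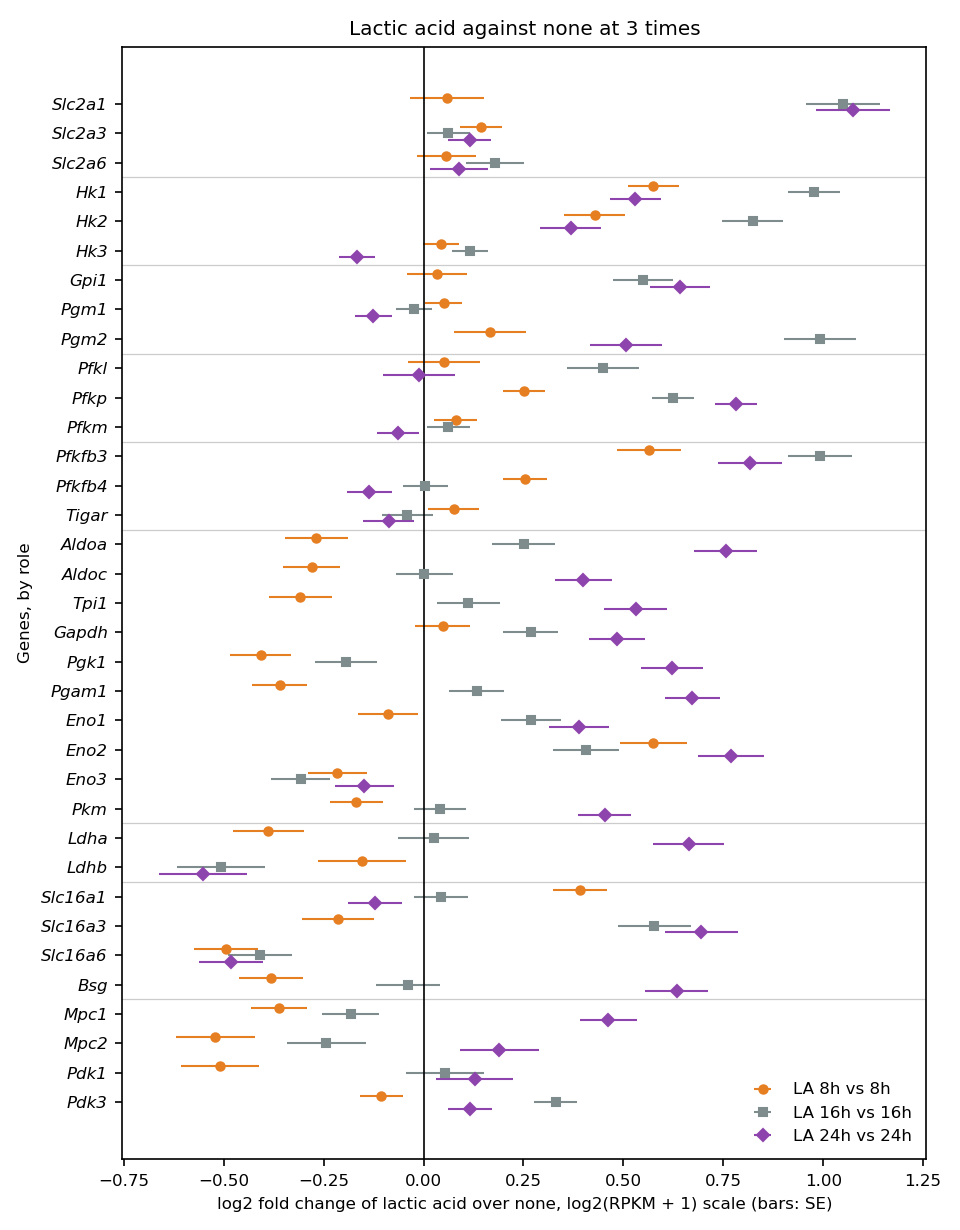
Log2 fold change of lactic acid over none (x axis, bars are standard errors) for each member at 8 h (orange circles), 16 h (grey squares) and 24 h (purple diamonds). For the enzymes from Aldoa to Pkm, except Eno2, Eno3 and Gapdh, the orange points lie left of 0 and the purple points right of it, while those of Hk1, Hk2, Pfkp and Pfkfb3 lie right of 0 at all 3 times.

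The effect of lactic acid at 24 h differed from that at 8 h in 24 members, with 19 higher and 5 lower, beside 32.7% and 29.7% of all tested genes. The difference between the effects was 1.05 ± 0.12 for Ldha (adjusted p = 6.4e-08), 1.03 ± 0.11 for Pgk1, 1.02 ± 0.11 for Aldoa and 0.91 ± 0.13 for Slc16a3. It was 1.01 ± 0.13 for Slc2a1, whose effect at 8 h had not passed. All 4 members of the mitochondrial group were higher in this difference, by 0.22 to 0.82, though Pdk3 turned to -0.04 with listed-read scaling. Slc16a1 (-0.51 ± 0.10), Ldhb (-0.40 ± 0.16) and Pfkfb4 (-0.39 ± 0.08) were lower, and the call for Ldhb was lost in 6 of 16 fits that left out a single library (-0.38 to -0.32). For Hk1 (-0.04 ± 0.09, adjusted p = 0.68) and Hk2 (-0.06 ± 0.11, adjusted p = 0.64) no difference between the times passed the test, though listed-read scaling put both at -0.34 and past it, and removing the length trend put Hk1 at 0.18 and past it. Listed-read scaling moved the all-gene median to -0.198, and 25.7% of the calls over all genes were then higher, in place of 52.4%. With that scaling, 15 members were higher and 12 lower. With the scaling as deposited and without 24h replicate 4 and LA 24h replicate 1, 21 were higher and 6 lower.

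Other genes of sugar metabolism, from lists chosen with earlier results of these data known, give the setting. At 24 h against 0 h, 4 of 11 pentose phosphate pathway genes were up and 3 down, with a median of 0.13, and of 29 genes of pyruvate oxidation and the TCA cycle 14 were up and 9 down, with a median of 0.07, where 39.9% of all tested genes were higher and 37.3% lower. Under listed-read scaling none of the pentose phosphate genes was up and 9 were down, and 4 genes of the TCA list were up and 23 down. Of 16 tested genes of glycogen and UDP-glucose metabolism 7 were up and 7 down, with a median of -0.02, and under that scaling 2 were up and 9 down. Gys1, glycogen synthase, had 38.9 ± 4.97 RPKM in LA 24h, 25.9 ± 3.61 at 24 h and 7.64 ± 0.715 at 0 h (SD, n = 4). Gyg, glycogenin, which primes glycogen chains, had 55.5 ± 6.39 RPKM at 24 h, against 109 ± 10.7 at 0 h, and Phka2, a regulatory subunit of phosphorylase kinase, had 2.53 ± 0.192 at 24 h, against 6.9 ± 0.207 at 0 h. Phgdh and Shmt2, which draw on the pathway to make serine and glycine, fell by 1.33 ± 0.13 and 1.29 ± 0.07 on the log2 scale at 24 h. Of 21 tested regulators of the pathway 12 were up and 8 down at 24 h against 0 h, with a median of 0.28. Under listed-read scaling 5 of them were up and 11 down. With lactic acid at 24 h 10 were up and 2 down, beside 25.5% and 21.7% of all tested genes. Under that scaling 3 were up and 8 down with lactic acid. Among these regulators, Hif1a, the hypoxia-inducible factor that drives many glycolytic genes, had 40.4 ± 7.35 RPKM at 24 h, against 9.36 ± 0.50 at 0 h (1.98 ± 0.09). Egln3, a prolyl hydroxylase that marks that factor for decay, had 89.9 ± 14.6 RPKM in LA 24h, against 39.5 ± 3.32 at 24 h (1.16 ± 0.12). Txnip, which limits glucose uptake, had 206 ± 33.1 RPKM in LA 24h, against 321 ± 61.3 at 24 h (-0.63 ± 0.10).

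A list of hypoxia targets outside the pathway, also chosen with results known, held 19 tested genes. With lactic acid, 2 of 19 were higher and 10 lower at 8 h (median -0.27), beside 32.1% and 36% of all tested genes, and 18 were higher and 1 lower at 24 h (median 0.96), beside 25.5% and 21.7%. Under listed-read scaling, 5 were higher and 9 lower at 8 h (median -0.18), and 16 were higher and 1 lower at 24 h (median 0.75). Hilpda, a lipid droplet protein gene, had 246 ± 46.6 RPKM in LA 24h, against 71.8 ± 19.7 at 24 h (1.78 ± 0.12). Among receptors that sense lactate, protons or other acids, Hcar2 had 6.07 ± 2.02 RPKM in LA 24h, against 0.974 ± 0.187 at 24 h (1.80 ± 0.12). Gpr65 was lower with lactic acid at 24 h (-0.73 ± 0.07).

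The ChIP-seq data ask where the 2 marks of lysine 18 lie, with 1 library per mark and state and so with no test. Of 32 members with a RefSeq start in the build of the peaks, 28 had an M1 H3K18la peak within 1 kb of a start (87.5%, against 72.3% of 8950 listed genes) and 30 an M0 H3K18la peak (93.8%, against 89.4%). H3K18ac peaks lay at 31 members in each state (96.9%, against 89.1% in M1 and 92.2% in M0). H3K18la was called in both states at 27 members (84.4%, against 71.1% of listed genes) and in M1 alone at Aldoc (3.1%, against 1.2%). It was called in M0 alone at Pgm1 as the table names it, Eno2 and Pdk3 (9.4%, against 18.3%), and in neither state at Ldhb (3.1%, against 9.4%). Ldhb had no H3K18ac peak either. In the H3K18la library of M1, reads in the spike-in were 0.674% of those in the mouse genome, against 1.425% in that of M0, and the H3K18ac libraries had 0.153% in M1 and 0.143% in M0. Peak calls and widths move with depth and enrichment, so a difference between single libraries cannot be told apart from the libraries themselves.

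Fold enrichment over the caller's background is the authors' own value and is read here within a list. For each member the peak with the highest value within 1 kb of any start was kept. The median of these peaks was 5.86 in the M1 H3K18la list, where all peaks had 4.16. In the M0 H3K18la list it was 7.48, where all peaks had 5.41. The all-peak medians hold every peak of a list, near a start or not. Peaks of the other listed genes were not picked in this way, so these medians do not set the members apart from other genes. Among the M1 H3K18la peaks of the members, that of Hk3 had the highest value, 20.43, followed by Aldoa with 11.99 and Eno1 with 10.48. In the M0 H3K18la list, Aldoa (15.45) and Eno3 (15.28) were highest. The H3K18la peaks of Eno3 in both states ended before the start they were counted for, inside the 1 kb window.

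For each member the widest peak at any of its starts was compared between the states, so the 2 widths of a member can come from different starts. H3K18ac was at least 2-fold wider in M1 at 5 of 31 members (16.1%, against 13.2% of listed genes), Hk2, Ldha, Pfkfb3, Pgm2 as the table names it, and Mpc1. The peak at Hk2 covered 18286 bases in M1 (chr6:82769327-82787612), against 3395 bases in M0 (chr6:82772147-82775541). That at Ldha covered 18003 bases in M1 (chr7:46829306-46847308), against 2903 in M0 (chr7:46844254-46847156), and that at Pfkfb3 16975 in M1, against 4324 in M0. In each of these 3 genes the RNA was higher at 24 h than at 0 h, as it was in 27 of all 35 members. The promoters printed above for Hk2 and Ldha lay inside these peaks in both states, while the wide Pfkfb3 peak of M1 (chr2:11488783-11505757) lay at a start downstream of the one printed. H3K18la was at least 2-fold wider in M1 at 2 of 27 members (7.4%, against 4.9% of listed genes). These were Hk3, with 10482 bases in M1 and 4413 in M0, and Slc2a6, with 3219 in M1 and 1359 in M0. Slc2a6 had less RNA at 24 h than at 0 h. H3K18la was at least 2-fold narrower in M1 at Gpi1, Pfkl and Pdk1, 3 of 27 members (11.1%, against 20.3% of listed genes).

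**Figure D5:**
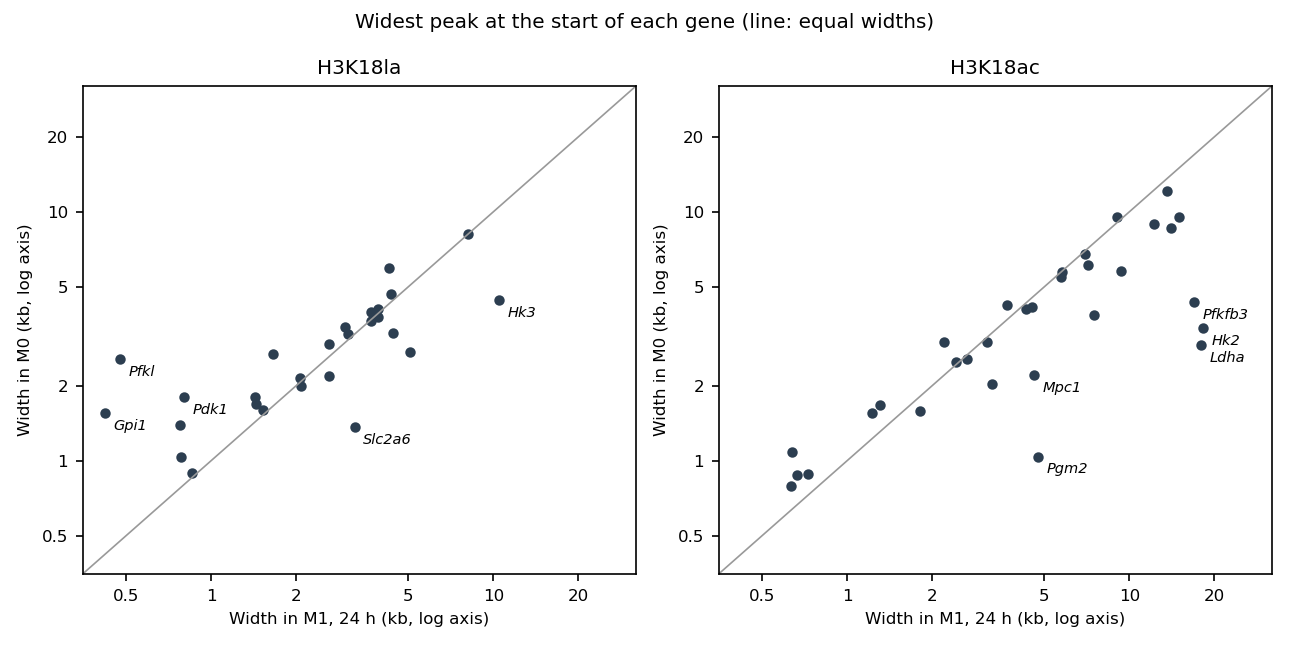
Width in kb (both axes logarithmic) of the widest peak at the start of each member in M1 at 24 h (x) and M0 (y), for H3K18la (left, 27 members) and H3K18ac (right, 31 members), where the line marks equal widths and names are given where widths differ at least 2-fold. Ldha, Hk2 and Pgm2 lie farthest right of the line for H3K18ac, followed by Pfkfb3, and Hk3 and Slc2a6 for H3K18la, each from single libraries.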

How the data were processed

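RNA was measured by poly(A)-selected, stranded RNA-seq in 32 libraries, 4 in each of 8 groups, and the marks by ChIP-seq in 1 library per mark and state. HISAT2 2.1.0, featureCounts 1.5.0-p1, SAMtools 0.1.19, Bowtie2 2.2.6 and MACS2 2.2.1, with the builds GRCm38 and mm10, are named in the submitters' processing notes. The RNA table holds RPKM values deposited by the authors, together with a p-value (FDR) across their comparisons. The authors' deposited table gives 19 of its 11184 genes an FDR of at least 0.05, and the percentages of called genes here refer to that list of mostly changed genes. The ChIP table deposited by the authors gives counts of reads in the mouse genome and in the spike-in. The peak lists deposited by the authors give a fold enrichment ratio for each broad peak, called per library.

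From these values log2(RPKM + 1) was fitted with limma 3.58.1 (R 4.3.3, trended prior, 1 mean for each of 8 groups, 24 residual degrees of freedom, two-sided) for genes that reached 1 RPKM in 4 or more libraries. P-values were adjusted by Benjamini-Hochberg over all 9942 tested genes, with a threshold of 0.05. The procedure was tested on simulated data. Depth was read from the steps of the RPKM values, 60.63 to 103.93 M reads in listed genes. The part of counting error in the spread between libraries was not computed. Starts and promoters came from RefSeq (GRCm38.p6), joined by gene identifier. Peaks were assigned within 1 kb of a start with an overlap of at least 1 base, and summaries used Python 3.11.15, pandas 2.3.3 and NumPy 2.4.6. The members, the other gene lists and the rule for named genes were chosen with earlier results of these data known. By that rule, values of every library are printed for Slc2a1, Hk2, Pfkfb3, Pkm, Ldha and Slc16a3, and for up to 5 called members in each direction with the largest fold change at 24 h and 8 h against 0 h and with lactic acid at 8 h and 24 h. Of the 35 members 3 (Slc2a3, Bsg and Slc16a6) had no RefSeq promoter here. Some genes of the other lists that fall under the rule for named genes are not reported here.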

Additional observations from a re-analysis of the deposited data

Results flagged for a closer look

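In 14 of 192 groups of 4 libraries, over the 24 named members, the gap between an extreme library and the nearest other one was a larger part of the group's range than Dixon's critical value, where chance gives about 1 in 20 groups. At the high end these libraries were Pgk1 in LA 24h replicate 1 with 1698 RPKM, Pkm in LA 8h replicate 3 with 1516 RPKM, Hk3 at 4 h in replicate 1 with 128 RPKM, Mpc2 at 4 h in replicate 2 with 4.31 RPKM, Pfkm at 0 h in replicate 4 with 10.1 RPKM and in LA 16h replicate 4 with 7.31 RPKM, and Aldoc in LA 16h replicate 4 with 43.8 RPKM. At the low end they were Pkm in LA 16h replicate 3 with 1931 RPKM, Slc2a1 at 0 h in replicate 4 with 14.0 RPKM, Slc16a3 at 0 h in replicate 4 with 30.7 RPKM, Ldhb at 0 h in replicate 2 with 3.83 RPKM, Pfkfb4 at 4 h in replicate 2 with 2.54 RPKM, Pfkm at 8 h in replicate 3 with 2.91 RPKM, and Eno2 at 8 h in replicate 2 with 0.595 RPKM. Among these, 0h replicate 4 was extreme for Slc2a1, Pfkm and Slc16a3.

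For 15 named members the effect of lactic acid at 24 h differed from that at 8 h by limma's test of the difference (adjusted p over all tested genes). The log2 difference was 1.05 for Ldha, 1.03 for Pgk1, 1.02 for Aldoa, 1.01 for Slc2a1, 0.91 for Slc16a3, 0.71 for Mpc2, 0.68 for Aldoc, 0.64 for Pdk1, 0.62 for Pkm and 0.53 for Pfkp. It was -0.51 for Slc16a1, -0.40 for Ldhb, -0.39 for Pfkfb4, -0.21 for Hk3 and -0.18 for Pgm1 as the table names it.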

How the results depend on the processing

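The choice of scaling mattered most. With each library rescaled by its summed listed reads, 29 of 350 member values lost their call, 33 gained one and 7 were called in the opposite direction. Among these changes, 28 values turned their sign. At 4 h against 0 h, 9 members were then higher and 22 lower, and the median of the members turned to -0.378. At 16 h 9 were lower, at 24 h 17 were higher and 10 lower, with lactic acid at 24 h 10 were lower, and in the difference between the lactic acid effects 12 were lower. The values that turned at 4 h were Bsg -0.314, Eno1 -0.434, Gapdh -0.435, Pfkl -0.378, Pgam1 -0.339, Pgk1 -0.078, Pkm -0.484, Hk3 -0.130, Tpi1 -0.511, Mpc2 -0.177 and Slc16a3 -0.075. At 8 h they were Aldoa -0.081 and Mpc2 -0.005, and at 16 h Hk1 -0.079, Pfkl -0.068, Slc16a1 -0.005 and Pfkp -0.139. At 24 h they were Eno1 -0.024, Eno3 -0.303, Hk1 -0.131, Ldhb -0.371, Pfkl -0.040, Slc16a1 -0.049, Pdk3 -0.130, Pfkp -0.087 and Pgm1 -0.267. In the difference between the lactic acid effects they were Slc2a6 -0.257 and Pdk3 -0.041. With the trend on gene length removed, 7 values turned, Pgam1 at 4 h (-0.017), Eno3 and Ldhb at 24 h (-0.229 and -0.266), Eno3 and Slc2a3 with lactic acid at 8 h (0.026 and -0.038), and Eno3 and Hk1 in the difference between the effects (-0.267 and 0.185). The cause was not tested.

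Leaving out a library gave 3 to 6 lower members with lactic acid at 16 h and 3 to 6 at 24 h, and the median of the members with lactic acid at 8 h ran from -0.008 (without LA 8h replicate 3) to 0.043. Fitting only the groups compared gave 2 lower members with lactic acid at 24 h. Without the filter on low values all 350 member values kept their direction and call, and a pseudocount of 0.1 RPKM changed 3 calls. The alternative without 24h replicate 4 and LA 24h replicate 1 was chosen after seeing the data. No general pairing of the libraries by replicate number was seen. Deviations from the group means had a median correlation of 0.025 for the same number (-0.643 to 0.536) and -0.011 for different numbers. A median over all pairs cannot show whether some of the groups were paired. With the replicate number as a block, 16 members were lower between 24 h and 8 h, in place of 15, and 4 were lower with lactic acid at 24 h, in place of 5, with Pfkfb4 at -0.136. A window of 2.5 kb or an overlap of at least 200 bases kept the number of members with a peak, while a fold enrichment of at least 4 left 24 of 32 members in M1 H3K18la (75.0%, against 51.3% of listed genes), 28 in M0 H3K18la (87.5%, against 83.3%), 25 in M1 H3K18ac (78.1%, against 69.8%) and 28 in M0 H3K18ac (87.5%, against 81.3%).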
